A study of Mus musculus with 192 samples.

Results

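Wfdc17, Cmah, Ddx4, Evl, Sema3d, Slc35d3, Il12a and Emp1 are 8 of the 20764 genes counted in single mouse bone marrow progenitors, and none is in the list of 22 lymphoid priming genes they are set beside. They were chosen because their RNA was higher in the cells with the strongest CD135 signal, so their difference between CD135 classes is a description and not a finding. The data were molecular counts (UMIs) from 192 single cells of C57BL/6 mice aged 8 to 16 weeks, labelled LSK, that is negative for lineage markers and positive for Sca-1 and cKit. Marrow was enriched on beads for cKit, stained, and sorted 1 cell to a well, and the sorter's antibody signal of each cell was recorded in arbitrary units. The libraries were 2 pools of 96 cells. The labels name no animal, so all cells were treated as 1 biological sample, no test was possible and every 95% interval covers counting error only.

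CD135 is Flt3, the receptor for Flt3 ligand, and LSK cells that carry much of it include the lymphoid-primed multipotent progenitors, which have lost most megakaryocyte and erythroid potential. Among these cells Dntt, which encodes the terminal transferase that adds nucleotides at antigen receptor joints, is an early lymphoid transcript, and Mpo, which encodes myeloperoxidase, an early granulocyte-monocyte transcript. cKit is the receptor for stem cell factor, Sca-1 is the product of Ly6a, CD16/32 are Fc gamma receptors used to gate granulocyte-monocyte progenitors, and CD127 is the alpha chain of the interleukin-7 receptor, found on lymphoid progenitors.

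In each pool the 32 cells with the highest, the middle and the lowest CD135 signal formed the upper, middle and lower class. One cell with 708 gene UMIs was left out, which left 64, 64 and 63 cells. Median depth was 17227, 17426 and 18031 gene UMIs per cell in the upper, middle and lower class. Kit was detected in 98.4% of the 191 cells kept, Ptprc in 96.3%, Flt3 in 86.4% and Ly6a in 37.7%. Both pools used the same 96 cell indices. Levels are summed UMIs as counts per 1000000 gene UMIs of a class (CPM), intervals of ratios are exact conditional binomial intervals, and those of shares are exact Clopper-Pearson intervals.

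The members differ in what their proteins do. Wfdc17 encodes a small secreted protein with a WAP four-disulfide core, known from activated macrophages. Il12a encodes the p35 chain, a secreted cytokine subunit that needs a partner chain, and Sema3d encodes a secreted class 3 semaphorin that signals through neuropilins and plexins. Cmah is the hydroxylase that turns N-acetylneuraminic acid into N-glycolylneuraminic acid, a form of sialic acid on mouse glycoproteins. Slc35d3 belongs to the nucleotide sugar transporter family and is known for its part in platelet dense granules. Emp1 is a tetraspan membrane protein of the PMP22 family, Evl regulates actin filaments as a member of the Ena/VASP family, and Ddx4, also called Vasa, is an RNA helicase known from germ cells.

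Positions are from GENCODE M21 on GRCm38. Wfdc17 (ENSMUSG00000069792) lies on chromosome 11 from 83703991 to 83706268, Cmah (ENSMUSG00000016756) on chromosome 13 from 24327404 to 24477377, Evl (ENSMUSG00000021262) on chromosome 12 from 108554720 to 108688516, and Sema3d (ENSMUSG00000040254) on chromosome 5 from 12383385 to 12588948. Il12a (ENSMUSG00000027776) lies on chromosome 3 from 68690644 to 68698547 and Emp1 (ENSMUSG00000030208) on chromosome 6 from 135362545 to 135383173. These 6 genes are on the plus strand. On the minus strand are Ddx4 (ENSMUSG00000021758), on chromosome 13 from 112598333 to 112652475, and Slc35d3 (ENSMUSG00000050473), on chromosome 10 from 19847916 to 19851459. Cmah overlaps the antisense gene Gm11342, which held 6 UMIs, and Evl overlaps Degs2 on the opposite strand, which held 3 UMIs. The strand used in counting is not given in the sources used here.

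The bases upstream of 4 members are shown. With the pools summed, Cmah and Emp1 on 1 side and Sema3d and Slc35d3 on the other went opposite ways by cKit and by Dntt within the CD135-high cells. For Sema3d and Slc35d3 the differences were seen in pool 2 and not in pool 1. Evl, which went with Cmah by cKit, is not printed. Each is the 250 bases before a RefSeq start (GRCm38.p6), 5′ to 3′ on the gene's strand, with matches to 4 short motifs in capitals, searched on both strands: CAGCTG and CACCTG (E-boxes), TGTGGT (RUNX) and AGGAAG (ETS).
Cmah, first start (chr13:24327154-24327403, plus strand): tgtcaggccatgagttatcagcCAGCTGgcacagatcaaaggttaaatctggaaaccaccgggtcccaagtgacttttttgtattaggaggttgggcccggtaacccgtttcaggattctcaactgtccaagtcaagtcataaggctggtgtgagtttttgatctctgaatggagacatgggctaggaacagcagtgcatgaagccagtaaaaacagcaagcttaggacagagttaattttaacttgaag
Cmah, second start (chr13:24414872-24415121, plus strand): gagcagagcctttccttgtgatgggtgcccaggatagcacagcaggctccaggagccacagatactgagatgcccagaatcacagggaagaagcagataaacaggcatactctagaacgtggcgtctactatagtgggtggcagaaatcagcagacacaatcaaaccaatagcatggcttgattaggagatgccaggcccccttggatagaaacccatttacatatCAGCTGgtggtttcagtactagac
Emp1, first start (chr6:135362681-135362930, plus strand): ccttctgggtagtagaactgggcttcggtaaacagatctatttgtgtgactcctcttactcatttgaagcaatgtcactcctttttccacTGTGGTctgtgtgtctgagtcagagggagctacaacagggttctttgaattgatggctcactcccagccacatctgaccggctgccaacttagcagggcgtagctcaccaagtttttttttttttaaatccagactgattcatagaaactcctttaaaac
Sema3d (chr5:12382916-12383165, plus strand): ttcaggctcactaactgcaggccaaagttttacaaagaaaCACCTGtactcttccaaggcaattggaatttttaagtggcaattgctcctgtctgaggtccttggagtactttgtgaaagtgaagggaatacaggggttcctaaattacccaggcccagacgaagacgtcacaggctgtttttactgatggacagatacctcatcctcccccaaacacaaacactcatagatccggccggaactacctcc
Slc35d3 (chr10:19851460-19851709, minus strand): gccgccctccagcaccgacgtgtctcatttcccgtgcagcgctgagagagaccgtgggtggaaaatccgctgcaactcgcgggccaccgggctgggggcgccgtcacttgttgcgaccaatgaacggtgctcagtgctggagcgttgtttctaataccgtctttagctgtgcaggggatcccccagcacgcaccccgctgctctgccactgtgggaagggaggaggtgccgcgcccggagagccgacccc
Both Cmah windows held CAGCTG, 228 and 24 bases before the start, a motif found in 13.0% of all 32851 promoter windows of this length. The first Emp1 window held TGTGGT, which 14% of all windows hold, and Sema3d held CACCTG, which 17.2% hold. The window before a second Emp1 start, on chromosome 6 from 135367243 to 135367492, is not printed and held none of the 4 motifs. Slc35d3 held none of the 4, and AGGAAG, in 29.5% of all windows, was found in none of the 5 printed. Of the members not printed, Wfdc17 held TGTGGT and AGGAAG. Il12a held CACCTG before its first and TGTGGT before its second start, and Ddx4 and Evl held none. The Slc35d3 window had 65.6% G and C, against 45.6% and 49.6% for Cmah, 44.4% and 45.6% for Emp1, 46.8% for Sema3d and a median of 52.4% over all windows. A match is a description of letters, and which start these cells use cannot be told from counts at the 3′ end.

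Across the CD135 classes all 8 members were more than 2-fold higher in the upper than in the lower class, which their choice had fixed. Of the 10266 genes with at least 20 UMIs in these classes, 4.31% were as much higher. Wfdc17 had the largest ratio of the members, with 117, 37 and 2 UMIs from the upper to the lower class (97.4, 30.2 and 1.57 CPM), a log2 ratio of upper to lower of 5.96 (4.07 to 9.02). Single upper cells held between 0 and 9 of its UMIs (median 1.0), and no lower cell held more than 1. Upper cells held up to 10 UMIs of Cmah (median 0), 7 of Ddx4 (0.50), 7 of Evl (1.0), 11 of Sema3d (1.0), 8 of Slc35d3 (1.0), 14 of Il12a (3.0) and 13 of Emp1 (1.0), and lower cells at most 3 of any. Every member thus overlapped between the classes in cells with none or few UMIs. All 8 were higher in the upper class in each pool. Genes were also ranked by the lower limit of this interval. The ranking took genes of at least 50 UMIs, with the same sign in both pools and no cell with over 20% of the UMIs. Predicted models, pseudogenes and ribosomal protein genes were left out. In this ranking Wfdc17 came at 1 and Il12a at 10. Of the other genes, just inside the first 12 were Ncf1 (lower limit 2.38) and Flt3 (2.18), and just outside were Mn1 (2.14) and Notch1 (1.99). Emp1 came at 15, with a lower limit of 1.88.

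Wfdc17, Ddx4, Sema3d, Slc35d3 and Il12a were also higher in the middle than in the lower class, with intervals of the log2 ratio off 0. The lower class was part of the contrast that chose them, so these ratios too are a description. For Il12a the levels were 189, 55.5 and 22.7 CPM, with UMIs in 59 of 64, 34 of 64 and 23 of 63 cells. The middle-to-lower log2 ratio was 1.29 (0.64 to 1.97) for Il12a, 4.27 (2.31 to 7.37) for Wfdc17 and 2.87 (1.35 to 4.84) for Ddx4. Sema3d (69.1, 20.4 and 5.48 CPM) and Slc35d3 (69.1, 26.1 and 5.48 CPM) had equal numbers of UMIs in the upper (83) and in the lower class (7).

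For Emp1, Cmah and Evl the middle and lower classes did not differ beyond counting error. Emp1 had 74.9, 13.0 and 11.7 CPM, and its middle-to-lower log2 ratio was 0.15 (-0.96 to 1.27). For Cmah (56.6, 5.71 and 1.57 CPM) it was 1.87 (-0.53 to 5.17), and for Evl (54.9, 8.97 and 3.13 CPM) 1.52 (-0.24 to 3.62); both ratios were larger than that of Il12a and rest on few UMIs (7 and 2 for Cmah, 11 and 4 for Evl), so a different shape over the CD135 range is not shown for them. The upper-to-middle log2 ratios of Emp1, Cmah and Evl were 2.52 (1.74 to 3.39), 3.31 (2.19 to 4.68) and 2.61 (1.68 to 3.69). In the plot of 6 bins of 16 cells per pool, Cmah held 34 UMIs in each of the highest 2 bins and 3 in the next.

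**Figure D1:**
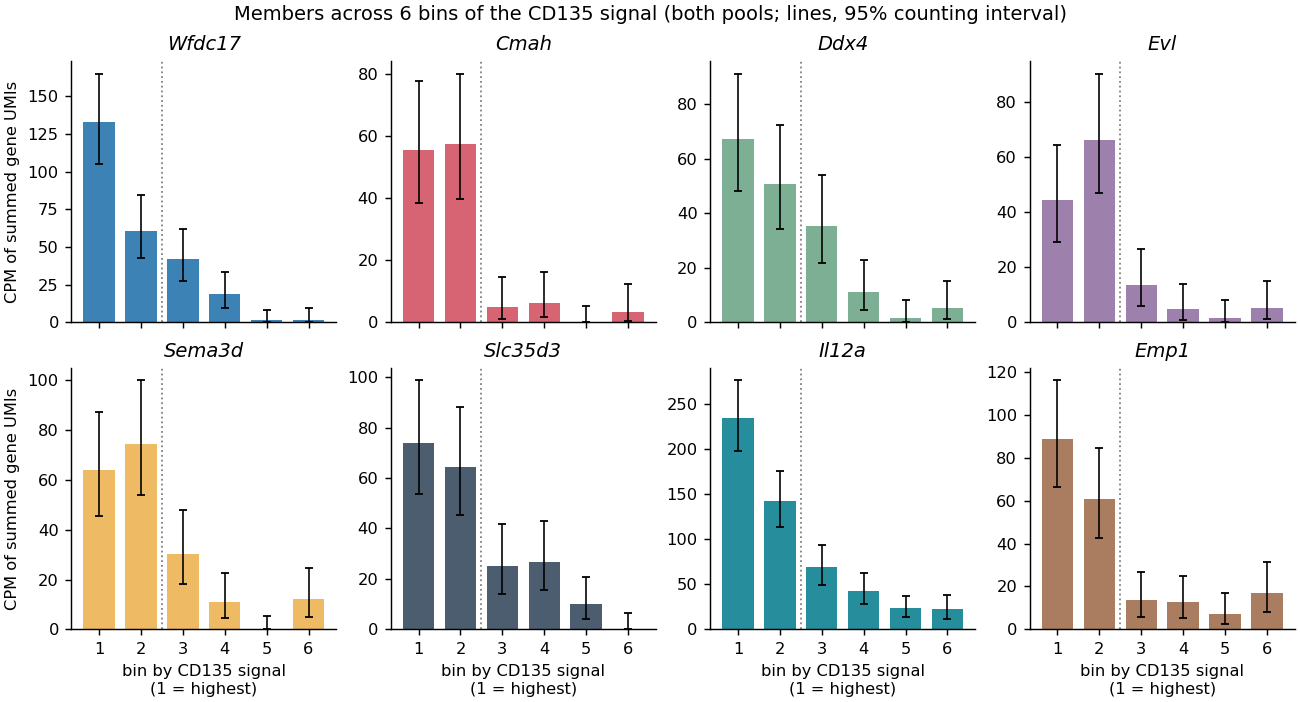
Level of each member (CPM of summed gene UMIs) in 6 bins of the CD135 signal, 16 cells per pool and bin before the filter, with exact Poisson 95% intervals; the dotted line marks the edge of the upper class. Cmah is at 57.5 CPM in bin 2 and 5.05 in bin 3, while Wfdc17 goes through 60.9, 42.1 and 19 CPM in bins 2 to 4.

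Within the upper class itself, Wfdc17 and Il12a were again higher with more CD135 signal, beyond counting error. Wfdc17 had 81 UMIs in the 32 cells with more CD135 and 36 in the 32 with less (log2 ratio 1.13, 0.54 to 1.73). Il12a had 143 and 84 UMIs (log2 ratio 0.72, 0.32 to 1.13). The intervals of the other 6 members spanned 0. CD135 signals of the upper class ran from 1118 to 4783.

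Most CD135-high cells held several members at once. A CD135-high cell held a median of 4.0 of the 8 (range 1 to 8), a middle cell 2.0 and a lower cell 1.0, and 48 of the 64 upper cells held 4 or more. No upper cell lacked all 8, against 7 middle and 23 lower cells. The members were chosen by CD135, so this difference between classes is a description. Whether members occur together more than the share of cells with each gives was not tested. With every cell thinned to 12147 UMIs, which left out 19 cells, 33 of 56 upper and 0 of 59 lower cells held 4 or more. Among the 28 pairs of members, Pearson correlations of log2(1 + UMIs per 10000) over the 64 upper cells ran from -0.11 (Cmah with Sema3d) to 0.26 (Wfdc17 with Emp1). All pairs share the depth of each cell, and in counts this sparse such values are weak.

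**Figure D2:**
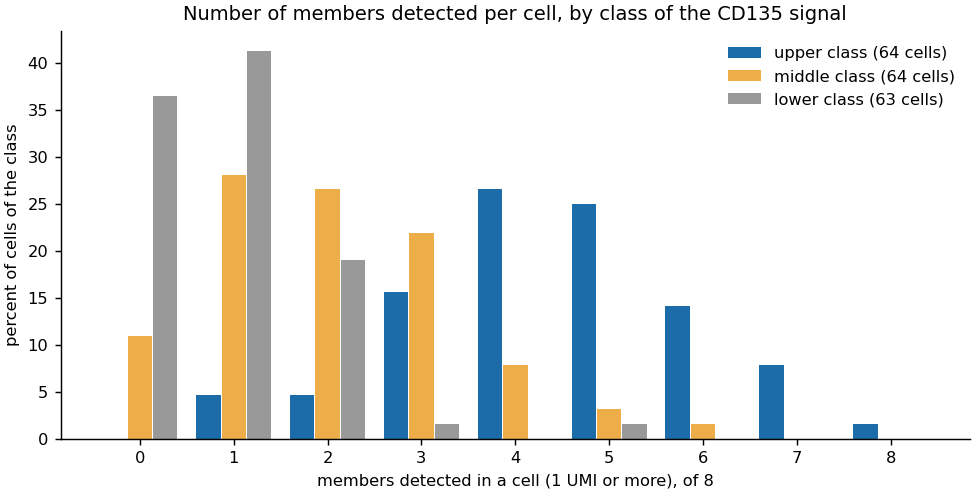
Percent of the cells of each CD135 class (vertical) in which a given number of the 8 members had at least 1 UMI (horizontal). The upper class peaks at 4 members (26.6% of cells), the lower class at 1 (41.3%), and the members were chosen by CD135.

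Cmah was the most concentrated member. Its 68 UMIs in the upper class came from 19 cells (29.7%, 18.9% to 42.4%), and 5 cells held 54.4% of them. Il12a, at the other end, had UMIs in 92.2% of upper cells (82.7% to 97.4%), and 5 cells held 22.5%. Wfdc17 was seen in 41 of the 64 upper cells, and Ddx4, Evl, Sema3d, Slc35d3 and Emp1 in 32 to 34.

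The 64 CD135-high cells were then split by 4 other antibody signals, 16 higher against 16 lower cells in each pool. The members were chosen by CD135 and not by these signals. Over the 8 members the median log2 ratio was -0.42 by cKit, 0.03 by Sca-1, -0.39 by CD16/32 and 0.00 by CD127, against -0.01, 0.01, 0.01 and -0.06 over all genes. By cKit, 3 of the 8 members differed more than 2-fold and all 3 were higher in the cells with less cKit. Of the 7862 genes with at least 20 UMIs in these cells, 7.10% differed as much in either direction. Cmah had 18 UMIs in the cKit-higher and 50 in the cKit-lower cells (log2 ratio -1.55, -2.41 to -0.75), Evl 19 and 47 (-1.38, -2.23 to -0.59), and Emp1 29 and 61 (-1.15, -1.84 to -0.49). All 3 had the same sign in each pool. Single cKit-lower cells held up to 10 Cmah, 7 Evl and 13 Emp1 UMIs, against up to 5, 3 and 4 in cKit-higher cells. The ranges of single cells overlapped, since both sides held cells with none. Without its 1 highest cell Emp1 stood at -0.88 (-1.60 to -0.19), and in pool 2 alone at -0.57 (-1.73 to 0.52). Between the 10 highest and 10 lowest cells per pool by cKit, Cmah was at -3.33 (-5.28 to -1.86).

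Sema3d and Slc35d3 lay on the other side. Slc35d3 had 56 UMIs in the cKit-higher and 27 in the cKit-lower cells (log2 ratio 0.98, 0.29 to 1.70), and Sema3d 55 and 28 (0.90, 0.22 to 1.61). Both differences were seen in pool 2, at 1.95 (0.94 to 3.07) and 1.64 (0.72 to 2.64). In pool 1 they were -0.04 (-1.06 to 1.00) for Slc35d3 and 0.00 (-1.09 to 1.12) for Sema3d; whether the pools differ was not tested. Wfdc17 (59 and 58 UMIs) and Il12a (115 and 112) were level. Dntt went with the first group, at 673 UMIs in the cKit-lower and 354 in the cKit-higher cells. Il7r, which encodes CD127, had all of its 42 UMIs in cKit-lower cells, where 8 of the 9 cells with a CD127 signal above 2000 lay. Without these 9 cells Cmah was at -1.04 (-2.10 to -0.02), Evl at -1.12, Emp1 at -1.21, Slc35d3 at 0.77 and Sema3d at 0.27.

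By Sca-1, 1 of the 8 members differed more than 2-fold, with 6.96% of all genes past that size. It was Cmah, with 10 UMIs in the Sca-1-higher and 58 in the Sca-1-lower cells (log2 ratio -2.53, -3.66 to -1.55). In pool 1 the counts were 0 and 31, and in pool 2 they were 10 and 27. Cmah UMIs were seen in 3 of 32 Sca-1-higher and 16 of 32 Sca-1-lower cells. Ly6a itself, with 45 and 9 UMIs, followed the protein. Emp1 went different ways in the pools, with 17 and 40 UMIs in pool 1 (-1.12, -2.03 to -0.26) and 22 and 11 in pool 2 (0.88, -0.22 to 2.07). The other 6 intervals spanned 0.

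By CD16/32, 2 of the 8 members differed more than 2-fold, with 7.30% of all genes past that size. Cmah had 6 UMIs in the 32 CD16/32-higher and 62 in the 32 CD16/32-lower cells (log2 ratio -3.36, -4.86 to -2.16), in 3 and 16 cells. Emp1 had 24 and 66 UMIs (-1.45, -2.19 to -0.76). Both signs were the same in each pool. Wfdc17 (39 and 78 UMIs, -0.99, -1.59 to -0.42) and Il12a (87 and 140, -0.68, -1.08 to -0.28) were also higher in the CD16/32-lower cells. Sema3d leaned the other way, with 51 and 32 UMIs (0.68, 0.01 to 1.36), and Ddx4, Evl and Slc35d3 were near 0. Dntt had 299 and 728 UMIs in these cells and Mpo 94 and 49. The CD16/32-lower cells also had more CD135 (median 1942 against 1469). Among the 24 cells per pool with the highest CD135, the differences were smaller: Cmah was at -1.93 (-3.09 to -0.91), Emp1 at -0.91 (-1.65 to -0.21), no longer past 2-fold, and Wfdc17 at -0.61 (-1.23 to 0.01). Proliferation genes were at 2024 CPM in the CD16/32-lower and 1185 in the CD16/32-higher cells, and their part in the result was not tested.

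Cmah was lowest where both Sca-1 and CD16/32 were high and highest where both were low. None of its UMIs came from the 20 cells higher in both, which allows up to 9.61 CPM, and 52 came from 13 of the 20 cells lower in both (135 CPM). The 12 cells higher in Sca-1 alone held 10 and the 12 higher in CD16/32 alone held 6. Dntt showed the same order, at 448, 887, 590 and 1390 CPM in the cells higher in both, higher in Sca-1 alone, higher in CD16/32 alone and lower in both. With the pools summed, Emp1 split by CD16/32 and not by Sca-1, by which it went different ways in the pools. It had 39.1 and 41.8 CPM in the 2 groups with more CD16/32 and 111 and 109 CPM in the 2 with less. Over the alternatives run, Cmah by CD16/32 ranged from -5.83 (highest against lowest 10 cells per pool) to -1.93 (the 24 cells per pool with most CD135), and it stood at -4.57 (-7.68 to -2.61) without the cells above 2000 in CD127. By Sca-1 it was at -2.66 without those cells and at -1.55 (-2.76 to -0.46) in pool 2 alone.

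**Figure D3:**
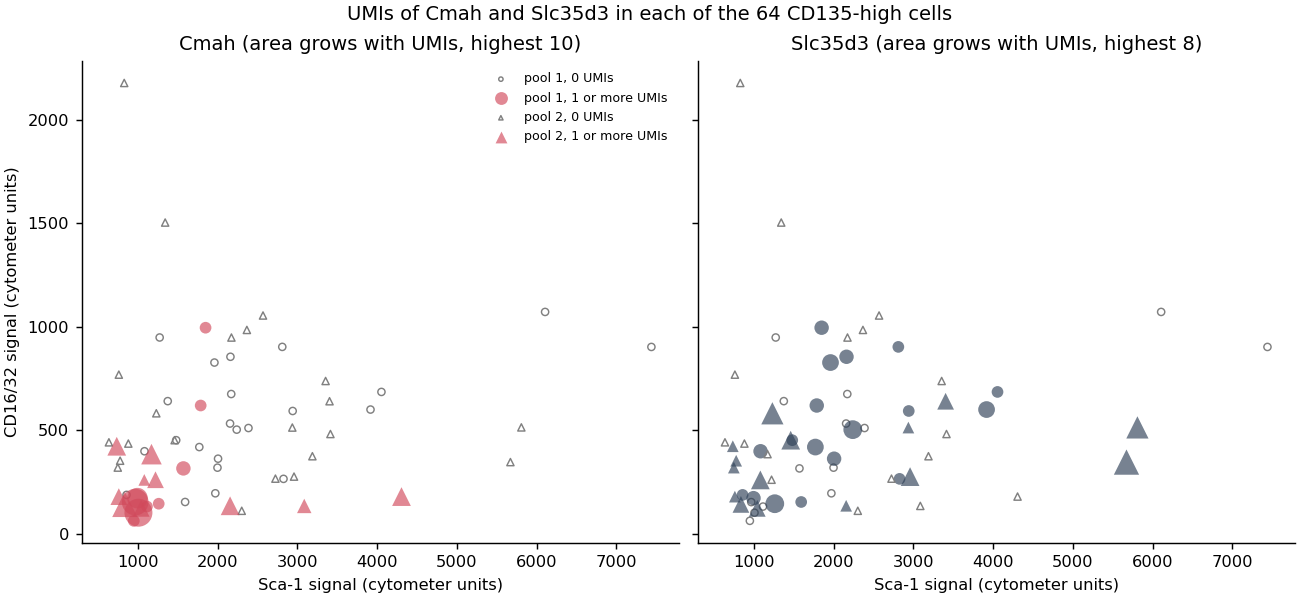
Sca-1 signal (horizontal) and CD16/32 signal (vertical), in cytometer units, of the 64 CD135-high cells, with the area of filled points growing with the UMIs of Cmah (left, at most 10) or Slc35d3 (right, at most 8); circles are pool 1 and triangles pool 2. Cmah gathers at low values of both signals, while Slc35d3 is spread over the plane.

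By CD127, 1 of the 8 members differed more than 2-fold, with 9.01% of all genes past that size. It was Evl, with 47 UMIs in the CD127-higher and 19 in the CD127-lower cells (log2 ratio 1.10, 0.30 to 1.95). Slc35d3 was lower with CD127, at 31 and 52 UMIs (-0.96, -1.65 to -0.29), as was Ddx4, at 29 and 42 (-0.74, -1.48 to -0.03). Cmah (41 and 27 UMIs), Emp1 (57 and 33), Sema3d (36 and 47), Wfdc17 and Il12a had intervals that spanned 0. The CD127-higher cells had more than the CD127-lower cells of proliferation genes (2155 against 969 CPM) and Mpo (99 against 44 UMIs); their part in these values was not tested.

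The cell with most Evl UMIs bears on that value. A single CD127-higher cell of pool 2 held 354 UMIs of the dendritic marker list, against 47 in the next cell. It also held 7 Evl UMIs and no UMI of the other 7 members. Without it Evl had a log2 ratio of 0.90 by CD127 and -1.19 by cKit, and no member passed 2-fold by CD127. The same cell is 1 of the 5 that held 37.9% of the Evl UMIs in the upper class.

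The 9 upper cells above 2000 in CD127 stood apart for Cmah and Slc35d3. Cmah had 32 UMIs in these 9 cells and 36 in the other 55 (log2 ratio 2.10, 1.37 to 2.83). It was seen in 7 of the 9 and in 12 of the 55. Slc35d3 had 6 and 77 UMIs (-1.41, -2.90 to -0.22), Evl 19 and 47 (0.96, 0.11 to 1.76), and Il12a was at 218 and 183 CPM (0.25, -0.25 to 0.73). Dntt was at 1876 and 643 CPM. Below the limit of 2000, Cmah went the other way with CD127, at a log2 ratio of -1.24 (-2.51 to -0.11).

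**Figure D4:**
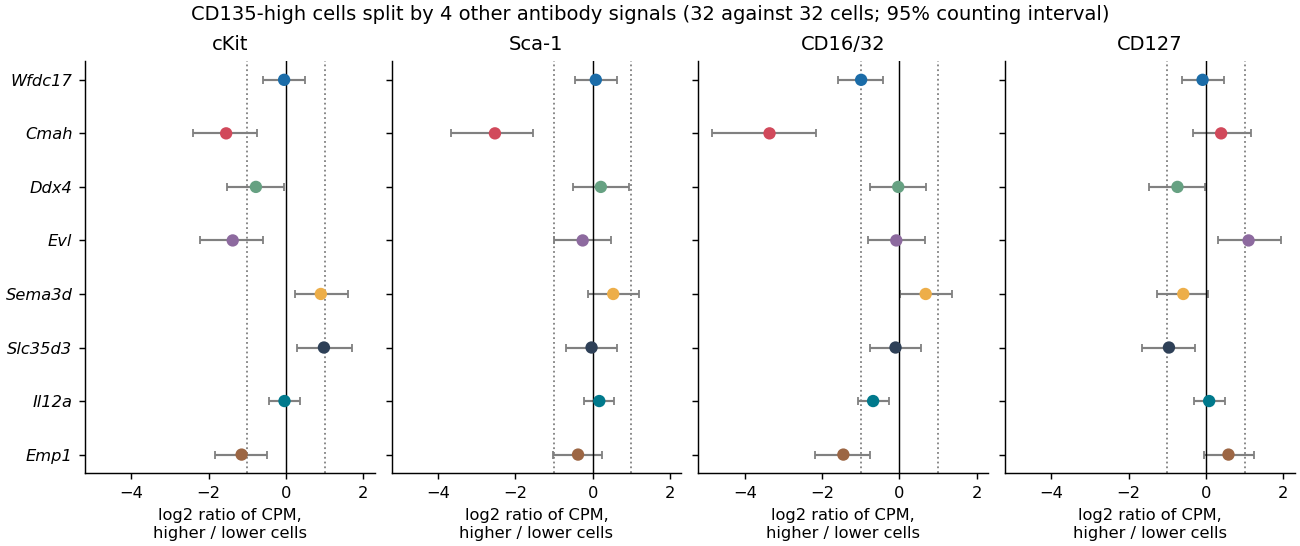
Log2 ratio of CPM (horizontal) between the 32 CD135-high cells with more and the 32 with less of each of 4 antibody signals, with exact 95% counting intervals; dotted lines mark 2-fold. Cmah lies left of 0 by cKit, Sca-1 and CD16/32 (-1.55, -2.53 and -3.36), while Sema3d and Slc35d3 lie right of 0 by cKit. Both pools are summed, and the differences of Sema3d and Slc35d3 by cKit were seen in pool 2 and not in pool 1.

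The middle CD135 class showed a different order by cKit. Emp1 had 1 UMI in its cKit-higher and 15 in its cKit-lower cells (log2 ratio -4.29, -9.69 to -1.59), Ddx4 5 and 23 (-2.59, -4.34 to -1.16) and Il12a 27 and 41 (-0.99, -1.75 to -0.25). Slc35d3, higher with cKit in the upper class, was lower with it here, at 10 and 22 UMIs (-1.52, -2.77 to -0.39). By Sca-1, Slc35d3 had 24 UMIs in the higher and 8 in the lower cells of the middle class (1.93, 0.73 to 3.29), and Ddx4 20 and 8 (1.67, 0.42 to 3.06), where in the upper class both were near 0. The differences between classes were not tested. Cmah had 7 UMIs in the middle class, too few to compare.

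Dntt was detected in 61 of the 64 CD135-high cells, so nearly every cell with a member also held Dntt. The share ran from 90.6% for the 32 cells with Ddx4 to 100% for the 19 with Cmah. Against the 3 cells without Dntt, 3 of the 8 members differed more than 2-fold (Emp1 and Wfdc17 higher and Slc35d3 lower with Dntt), with 20.8% of all genes past that size, and every interval spanned 0. Over all 191 cells Dntt was detected in 137, and Cmah in 17.5% of these and in 3.70% of the 54 others. The same shares were 44.5% and 11.1% for Wfdc17 and 68.6% and 40.7% for Il12a. After thinning they were 14.5% and 1.61% for Cmah, 37.3% and 9.68% for Wfdc17, and 61.8% and 30.6% for Il12a. These shares also follow CD135, by which the members were chosen.

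The level of Dntt within the CD135-high cells gave sides of equal size. Between the 32 cells with more and the 32 with less Dntt, 2 of the 8 differed more than 2-fold, with 7.24% of all genes past that size. Cmah had 60 and 8 UMIs (95.6 and 13.9 CPM, log2 ratio 2.78, 1.71 to 4.05), and its ratio was 3.02 in pool 1 and 2.62 in pool 2. Emp1 had 67 and 23 UMIs (1.41, 0.71 to 2.16), at 1.71 and 0.94 in the pools, and Ddx4 47 and 24 (0.84, 0.10 to 1.61). Sema3d and Slc35d3 each had 34 UMIs in the Dntt-higher and 49 in the Dntt-lower cells (-0.66, -1.33 to 0.00), with the difference in pool 2 (-1.06 and -1.29) and not in pool 1 (-0.02 and 0.12). Il12a (123 and 104 UMIs), Wfdc17 (67 and 50) and Evl (40 and 26) did not differ beyond counting error. All 9 cells above 2000 in CD127 were among the Dntt-higher cells, which also had proliferation genes at 2122 against 1039 CPM. The part of these in the result was not tested.

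Mpo was detected in 34 of the 64 CD135-high cells, and every member was found in cells with it. Of the cells with a member, 39.4% held Mpo for Sema3d, 48.5% for Slc35d3 and 57.9% for Cmah. By Mpo detection 2 of the 8 members differed more than 2-fold, with 9.34% of all genes past that size. Sema3d had 31 UMIs in cells with and 52 in cells without Mpo (44.6 and 103 CPM, log2 ratio -1.20, -1.89 to -0.53). It was -1.43 in pool 1 and -0.75 in pool 2, and was seen in 13 of 34 and 20 of 30 cells. Slc35d3 had 32 and 51 UMIs (-1.13, -1.81 to -0.46), from pool 2 (-2.26, -3.79 to -1.02) and not pool 1 (-0.05, -1.15 to 1.16). Without the cell that held most of each, they were at -0.91 and -0.93, and among the 24 cells per pool with the highest CD135 at -0.94 (-1.69 to -0.22) and -0.62 (-1.36 to 0.10). Cells with Mpo were deeper (median 20085 against 16056 gene UMIs). After thinning, Sema3d was seen in 7 of 25 cells with and 19 of 31 without Mpo, and Slc35d3 in 9 and 17.

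By Mpo, Cmah differed in direction between the pools: it was higher with Mpo in pool 1 (29 and 2 UMIs, log2 ratio 2.42, 0.44 to 5.54) and at -0.38 (-1.47 to 0.65) in pool 2. By the level of Mpo, Sema3d had 28 UMIs in the 32 Mpo-higher and 55 in the 32 Mpo-lower cells (-1.22, -1.93 to -0.54). Ddx4 had 27 and 44 (-0.95, -1.70 to -0.23), with the same sign in each pool, and Wfdc17 51 and 66 (-0.62, -1.18 to -0.07).

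Taking Dntt and Mpo together, Cmah was low in the cells with less Dntt, with or without Mpo. Sema3d and Slc35d3 were highest in the 19 cells with less Dntt and no Mpo. Sema3d and Slc35d3 each had 38 UMIs in these cells (125 CPM, 88.7 to 172), against 40.7 CPM in the 13 cells with less Dntt and with Mpo. Cmah had 2 UMIs (6.59 CPM, 0.799 to 23.8) in the same 19 cells and 6 UMIs (22.2 CPM, 8.15 to 48.3) in the 13 cells with less Dntt and with Mpo, with overlapping intervals. In the 11 cells with more Dntt and no Mpo it had 24 UMIs (118 CPM). Emp1 was lowest, at 18.5 CPM (6.01 to 43.2), in the cells with less Dntt and with Mpo. Il12a stayed between 148 and 226 CPM and Wfdc17 between 81.4 and 108 CPM in all 4 groups, with overlapping intervals. All 4 groups sum both pools, which are not evenly spread over them. Mpo was detected in 21 of the 32 upper cells of pool 1 and 13 of the 32 of pool 2. Upper cells of pools 1 and 2 had 57.4 and 81.8 CPM of Slc35d3 and 51.1 and 88.8 CPM of Sema3d. The part of the pools in this pattern was not tested. Though Sema3d and Slc35d3 share the pattern, they were found in 15 cells together, of 33 with each, and their correlation over the upper cells was -0.05.

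**Figure D5:**
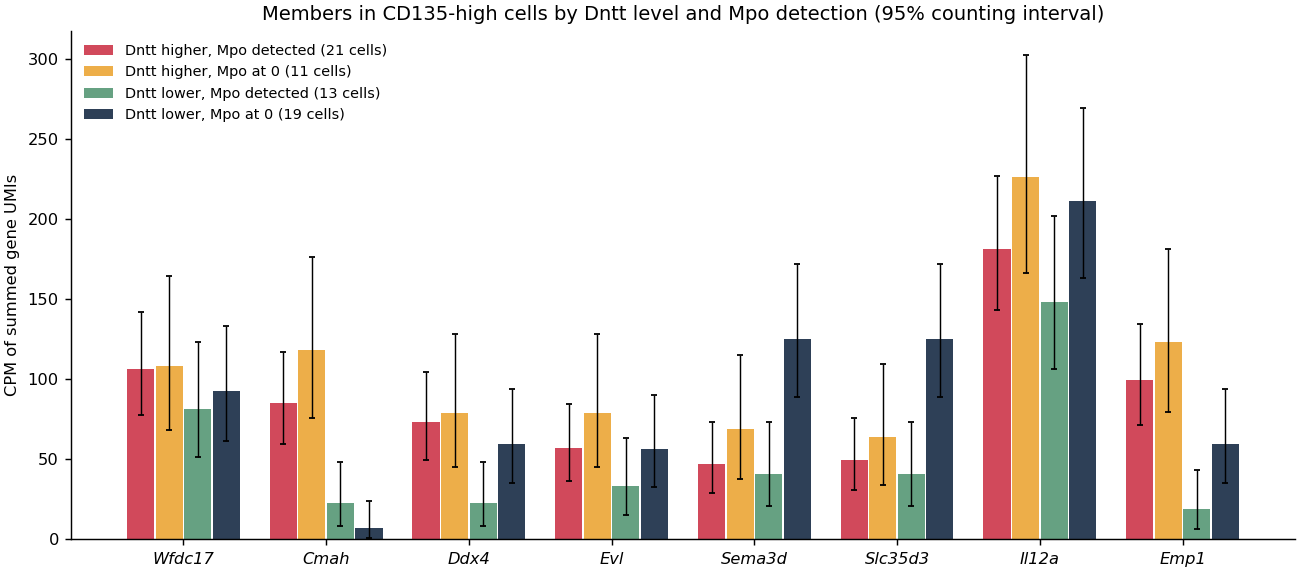
Level of each member (CPM of summed gene UMIs, vertical) in the CD135-high cells grouped by more or less Dntt and by Mpo detected or at 0, with exact Poisson 95% intervals. Both pools are summed. Sema3d and Slc35d3 reach 125 CPM in the cells with less Dntt and Mpo at 0. Cmah has 6.59 CPM there and 22.2 CPM in the cells with less Dntt and Mpo detected, with overlapping intervals.

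Genes with a pattern most like each member over the 191 cells were found by Pearson correlation among 8673 genes of at least 50 UMIs. Dntt was nearest to Cmah (0.53, and 0.50 within the upper cells) and to Emp1 (0.51 and 0.39). Ighm was nearest to Il12a (0.55, level with Dntt), Wfdc17 (0.49) and Evl (0.46), but within the upper cells these values were 0.05, 0.20 and 0.13. Ddx4 was most like Rasal3 (0.39, and 0.47 within the upper cells), Sema3d like Il1r1 (0.43 and 0.33) and Slc35d3 like Flt3 (0.38 and 0.21). These values share the depth and the CD135 signal of the cells and are given with no p.

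Some relatives and partners of the members were also higher in the upper class, and others were not. Wfdc18, which lies beside Wfdc17 on chromosome 11 from 83709015 to 83711348, was among the first, with 30 UMIs in the upper and 1 in the lower class (log2 ratio 5, 2.41 to 10.35). Of the 12 upper cells with Wfdc18, 11 also held Wfdc17, and no stretch of 31 bases was shared by their annotated transcripts. One cell held 22.2% of the Wfdc18 UMIs. For Il12a, Ebi3, a cytokine chain that can pair with its product, was at a log2 ratio of 0.67 (0.10 to 1.26) and at 54.9 CPM in the upper class. The receptor genes Il6st, Il27ra and Il12rb1 were at 0.63, -0.97 and -0.29, with intervals that spanned 0. Il12b was not among the genes counted, so no value for that partner chain is given.

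Of the most counted sialic acid genes, the polysialyltransferase gene St8sia4 was at 1.22 (0.88 to 1.56), Cmas, which activates sialic acid, at -0.34, the sialyltransferase gene St3gal1 at -1.05 (-1.59 to -0.53) and Slc35a1, the transporter of activated sialic acid, at 0.06. Of 10 germline genes Dazl, Piwil2 and Sycp3 were counted beside Ddx4, with 1, 3 and 3 UMIs in all cells against 103 for Ddx4. Beside Evl, the actin-linked proteins' genes Pfn1, Zyx, Apbb1ip and Vasp were at -0.18, 0.47, 0.15 and 0.20. Emp3 was at -0.28 beside Emp1. Slc35c1, Slc35a3 and Slc35b1, other nucleotide sugar transporters, were at 0.20, -0.07 and -0.38 beside Slc35d3. Less counted relatives, picked after their values were seen because they were past 2-fold with intervals off 0, were the sialyltransferase gene St6gal1 at 3.41 (0.60 to 8.85), Lpxn of the Evl list at 2.67 (0.51 to 5.88) and Slc35e1 at 1.67 (0.39 to 3.15). Slc35d1 went the other way, at -1.35 (-2.84 to -0.04).

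The receptors of semaphorins were thinly counted. Plxnd1 was at 1.90 (0.54 to 3.49) with 21 UMIs in the upper and 6 in the lower class, Plxna3 at 0.09 and Plxna1 at -0.65. The co-receptor gene Nrp1 had 8 UMIs in the upper and 1 in the lower class (3.09, 0.19 to 8.56). Sema3c and Sema3f had 2 and 3 UMIs, none in the upper class.

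Marker lists of other cell types, each summed over its genes in the counts, differed between the CD135 classes as follows. The macrophage list, 9 of 10 genes counted, was at 117, 177 and 132 CPM in the upper, middle and lower class. Most of it was Lyz2 (84.9, 104 and 112 CPM), with a log2 ratio of upper to lower of -0.40 (-0.78 to -0.02). Cd68, at 12.5, 19.6 and 3.13 CPM, went the other way on 15 and 4 UMIs (2.00, 0.35 to 4.04). It was highest in the middle class. The intervals of the other macrophage genes spanned 0. The neutrophil list (5 of 7 genes) stood at 5.83, 4.08 and 2.35 CPM, and the B lineage list (7 of 8) held 19, 183 and 26 UMIs, most of the 183 in 1 cell. The T, ILC and NK list (4 of 7) was at 83.3, 83.2 and 114 CPM. The dendritic list (all 10) was at 882, 404 and 288 CPM. Single upper cells held 3 to 354 of its UMIs (median 9.0), middle cells 0 to 25 (7.0) and lower cells 0 to 15 (6.0). Of its 1059 UMIs in the upper class, 354 were in 1 cell and 490 were of Tcf4. Cd74 was seen in 20, 12 and 7 cells of the upper, middle and lower class, but H2-Aa in 17, 26 and 23. One cell held 56.8% of the Cd74 and 43.0% of the H2-Aa UMIs. The erythroid list (all 8) was at 38.3, 70.9 and 694 CPM and the megakaryocyte list (4 of 5) was at 34.1 CPM in the upper and 108 in the middle class, with a median of 2.0 UMIs in lower and 0 in upper cells. Proliferation genes (all 12) were at 1605, 1548 and 1759 CPM. Apart from the values without 1 dendritic-rich cell given above, their part in the members' levels was not tested. The lymphoid priming list had 13 of its 20 measured genes more than 2-fold higher and 0 lower in the upper than in the lower class, with a median log2 ratio of 1.80 against -0.05 over all genes. This list holds Flt3, the gene of CD135 itself, and was chosen with earlier results of these data known. Its values by CD135 class are thus a description. The granulocyte-monocyte list had 4 of 11 higher and 3 lower, with a median of 0.18. Of all genes 4.31% were more than 2-fold higher, and the share more than 2-fold lower is not given here. Mpo itself was at 119 against 368 CPM, a difference seen in pool 1 (134 against 600 CPM, log2 ratio -2.16, -2.52 to -1.82) and not in pool 2 (103 against 96.9 CPM, 0.08, -0.47 to 0.64). Within the CD135-high cells, 3 of the 18 measured genes of the lymphoid list were past 2-fold by cKit, 2 by Sca-1 and 4 by CD16/32, all lower, and 1 by CD127, which was higher. Of all genes, 7.10%, 6.96%, 7.30% and 9.01% were past 2-fold in either direction by these 4 signals. The list's medians were -0.18, -0.13, -0.36 and -0.05, against -0.01, 0.01, 0.01 and -0.06 over all genes.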

How the data were processed

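UMI counts per gene and cell, made by the authors with a CEL-seq2 type protocol per the labels' protocols, were used as deposited. The submitters' processing notes name GRCh38, although the gene identifiers are mouse; for the aligner, counter, UMI rule and strand: not given in the sources used here. Symbols and positions are from GENCODE M21.

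Cells under 20% of their pool's median gene UMIs were left out (1 of 192). Spike-ins were not counted among gene UMIs. Classes of the sorter's signals were set within each pool, UMIs were summed per class over 3704842 gene UMIs in all, and log2 ratios carry exact conditional binomial intervals (95%). A gene was counted as past 2-fold at 1 or more on the log2 scale; backgrounds hold genes with at least 20 UMIs in both sides together. A fold against 0 UMIs used a floor of 3 UMIs. No test was run, since the labels name no animal. Intervals cover counting error only and treat the UMIs of a class as independent, although a few cells hold many of them.

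The genes, lists and splits were chosen with earlier results of these data known. Named beside the 8 genes were the antibody targets' genes, Dntt, Mpo, the 2 genes on either side of rank 12, the 3 most alike genes per member (the nearest is given) and up to 4 relatives per family by UMIs. The comparison was checked on simulated counts. Alternatives covered scaling (edgeR 4.0.16 TMM and DESeq2 1.42.0 size factors, in R 4.3.3), cell filters, class sizes, thinning, single pools, fold sizes and left-out cells. Python 3.11.15, numpy 2.4.6, scipy 1.17.1 and pandas 2.3.3 were used.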

Additional observations from a re-analysis of the deposited data

How the results depend on the processing

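All 8 genes were more than 2-fold higher in the upper than in the lower CD135 class under every alternative run. With a limit of 1.5-fold, 6 genes differed by cKit (3 at 2-fold), 5 by CD16/32 (2), 4 by CD127 (1) and 6 by Dntt detection (3); of all genes 23.2%, 23.3%, 26.3% and 41% did. The counts that follow are given without the share of all genes in the same setting. They cannot be read against the shares given for both pools and all cells. In pool 1 alone the counts were 2 by Sca-1 (1 in both pools), 5 by CD16/32 and 0 by CD127. In pool 2 alone they were 2 by CD127, 1 by Dntt detection and 1 by Mpo detection (2 in both pools). Without each gene's highest cell 2 differed by CD127 and 0 by Mpo detection. By CD127, 0 differed without the cell with most dendritic UMIs, an alternative chosen after seeing the data, and 0 between the highest 10 and lowest 10 cells per pool. By Dntt detection, 0 had an interval off 0, and 5 differed in thinned cells. By Mpo detection, 1 differed with the mean of per-cell CPM, 1 without cells above 2000 in CD127, 1 between sides set by the CPM of Mpo and 0 among the 24 highest cells per pool by CD135. Slc35d3 by Dntt detection, at -1.07, had the opposite sign in pool 1 alone (0.53) and among the 24 highest cells (0.81). The cause of these differences was not tested. Single pools and left-out cells also leave fewer cells to count. Of 104 counts, 84 were within 1.5 times the reported count, 11 lower and 9 higher. Of 696 log2 ratios of single genes, 665 lay inside the reported interval. No paired analysis was possible because the labels number the cells and pair none of them. Depth limits Cmah in the middle class (7 UMIs) and every value against the 3 cells without Dntt.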
